A study of Homo sapiens with 15 samples.

Results

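The replication-dependent histone genes supply the proteins that wrap newly copied DNA. They were taken here as the genes of the count table whose symbol has the form H2AC, H2BC, H3C or H4C followed by a number, together with H1-1 to H1-5, without pseudogenes and with at least 10 counts in 3 or more of the 15 libraries. Of 62754 Ensembl genes in the table, 68 carried such a symbol and 54 reached the count minimum: 5 H1, 12 H2A, 17 H2B, 10 H3 and 10 H4 genes. The rule used no difference between media. The cells were wild-type MCF10A, a human breast epithelial line that is not tumorigenic and is grown with growth supplements and cholera toxin. They grew in DMEM/F12 with 2.5 mM glutamine (full medium) or with 0.28, 0.20, 0.12 or 0.04 mM, with 3 biological replicates at each concentration, and the comparison asked how transcripts respond when glutamine is limiting. No genotype, drug or time course separated the groups, and all of them shared the same line and supplements. It is 1 cell line, so the spread below is that between its cultures.

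Most of the histones in chromatin are made during S phase, when DNA is copied, from tandem gene clusters that hold several near-identical genes for each histone. H2A, H2B, H3 and H4 form the nucleosome core, and H1 binds the linker DNA between nucleosomes. Their mRNAs normally end in a conserved stem-loop in place of a poly(A) tail. The stem-loop is bound by SLBP, which governs the processing, translation and decay of these mRNAs, while the coactivator NPAT, a substrate of cyclin E-CDK2, drives their transcription. The libraries were made from total RNA after removal of ribosomal RNA, without selection for poly(A), so mRNAs that lack a tail could be read. In RNA from a whole culture, fewer cells in S phase and less histone mRNA per S-phase cell cannot be told apart.

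The stem-loops are shown because they are typical of the mRNAs under study. A search of the GENCODE 29 transcripts for the 16-base consensus of the histone stem-loop, on the transcript strand and with variable positions in both arms and the loop, found it in 23 of the 54 genes, and all 23 were among the 27 whose models run past the coding sequence. For the other 27 the model held only coding sequence, so the 3′ end was not there to be searched. The 16 bases of the stem-loop are in capitals, with 5 bases on each side.
H2AC8: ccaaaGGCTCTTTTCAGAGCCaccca
H2BC9: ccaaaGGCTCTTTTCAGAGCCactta
H2BC5: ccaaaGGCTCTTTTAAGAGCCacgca
H4C2: ccaatGGCCCTTTTCAGGGCCgccca
H4C16: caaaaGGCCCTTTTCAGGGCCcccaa
The form in H2AC8 and H2BC9 was found in 13 genes, the form in H2BC5 in 4 and the form in the H4 genes in 5, all of them H4. In H2AC11 it read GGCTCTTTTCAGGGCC. The models ran on past the stem-loop, by 1 base in H2BC6 to 1917 in H2BC26, and by 1640 in H2BC9. The counts are per gene and do not separate mRNAs that end at the stem-loop from longer ones.

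The promoters are shown because genes of the same histone class share promoter elements. RefSeq promoter windows (GRCh38.p14, 250 bases before to 50 after the start) matched 49 of the 54 genes. Each motif below was searched on both strands. CCAAT was present in 42 of 49 windows (85.7%, against 34.6% of all 35116 promoters in the table): in every H1, H2A, H2B and H3 window, and in 1 of 8 H4 windows. TATAAA was present in 34 of 49 (69.4%, against 11.5%). The octamer ATTTGCAT was present in 21 of 49 (42.9%, against 1.77%), namely in 13 of 17 H2B and 8 of 11 H2A windows, some of which overlap because an H2A and an H2B gene can be transcribed away from a shared stretch. GGTCCG was present in 8 of 8 H4 windows and in 3 of the other 41 (11.3% of all promoters). The 120 bases before the start are printed for 4 genes, 5′ to 3′ on the gene's strand, with these motifs in capitals (a motif on the other strand appears as its reverse complement).
H1-3: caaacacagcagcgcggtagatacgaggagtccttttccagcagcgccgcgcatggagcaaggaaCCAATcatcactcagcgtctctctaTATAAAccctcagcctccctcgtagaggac
H2BC9: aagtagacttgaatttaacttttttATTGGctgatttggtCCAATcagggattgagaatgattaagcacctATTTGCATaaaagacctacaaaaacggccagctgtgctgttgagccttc
H3C2: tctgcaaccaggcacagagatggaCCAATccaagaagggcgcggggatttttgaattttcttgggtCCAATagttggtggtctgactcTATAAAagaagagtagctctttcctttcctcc
H4C2: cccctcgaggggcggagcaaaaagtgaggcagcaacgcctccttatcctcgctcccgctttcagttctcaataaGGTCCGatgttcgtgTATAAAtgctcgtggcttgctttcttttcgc
These lie at chr6:26234988-26235107 (minus strand), chr6:26251494-26251613 (plus), chr6:26032100-26032219 (minus) and chr6:26027284-26027403 (minus). The H4 motif began 44 to 47 bases before the start in all 8 H4 genes, and TATAAA 27 to 33 bases before it wherever it lay in the 120 bases.

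Of the 54 genes, 46 lie in the cluster at 6p22 (chromosome 6, 26017032 to 27893891), 5 at 1q21, 2 at 1q42 and 1, H4C16, at 12p12. The coding sequences gave 29 different proteins: the 10 H4 genes encoded 1 protein, and 9 of the 10 H3 genes another. How the counting treated reads that fit several copies, or the strand, is not given in the sources used here. Among the 54 genes, 40 shared under 10% of their 50-base stretches with the transcript of any other gene, and 7 shared at least 50% (H2AC13, H2AC14, H2BC18, H2BC12, H3C13, H4C11 and H4C12), so their values are uncertain. The 14 genes that missed the count minimum had at most 7 counts in any library. They were H2AC1, H2AC7, H2AC17, H2AC18, H2AC19, H2BC1, H3C4, H3C14, H3C15, H4C6, H4C7, H4C9, H4C14 and H4C15. Of those 14, 11 either shared over 90% of their 50-base stretches or overlapped another coding gene, so a low count there does not show a silent gene.

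Depth was 3704170 to 13361406 gene counts per library. Levels are given as CPM, counts relative to a fixed library total after TMM scaling. A gene is said to fall where edgeR's quasi-likelihood test gave a Benjamini-Hochberg adjusted p under 0.05 over all 13828 genes tested, in 1 fit of the 15 libraries with the replicate number as a block, since libraries with the same number resembled each other. All 54 histone genes were among the genes tested, and their counts per library ran from 9 to 6808. Epithelial markers summed to 13900 to 22200 CPM per library, led by KRT5. The 8 fibroblast markers summed to 33.2 to 45.7 CPM in full medium and to 50.3 to 60.9 at 0.04 mM, led by DCN, with LUM and THY1 at 0. The 4 endothelial markers summed to 3.76 to 5.67 and 5.82 to 12.1, led by PECAM1, with CDH5 at 0, and the immune markers summed to at most 2.85 in every library. The part of these markers in the histone values was not tested.

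At 0.04 mM glutamine 52 of the 54 histone genes fell against full medium, and none rose. The background was 6.23% of all genes tested called lower and 7.21% called higher in that comparison. The median log2 change was -0.48, a level 28.4% lower, against 0.01 over all genes, and all 54 estimates were below 0. The 52 genes made up 6.04% of the 861 genes that fell. In 40 of the 54 every library at 0.04 mM was below every full-medium library (8.21% of all genes), and 52 were lower in 3 of 3 same-numbered pairs (20.8% of all genes). Without the replicate block 0 of 54 passed, as did 0 of all genes. The medians of the changes were then -0.48 as well, the median standard error was 0.16 in place of 0.09, 48 genes had an unadjusted p under 0.05 (5.71% of all genes, downward), and the smallest adjusted p was 0.0685 (H2BC9, edgeR).

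**Figure D1:**
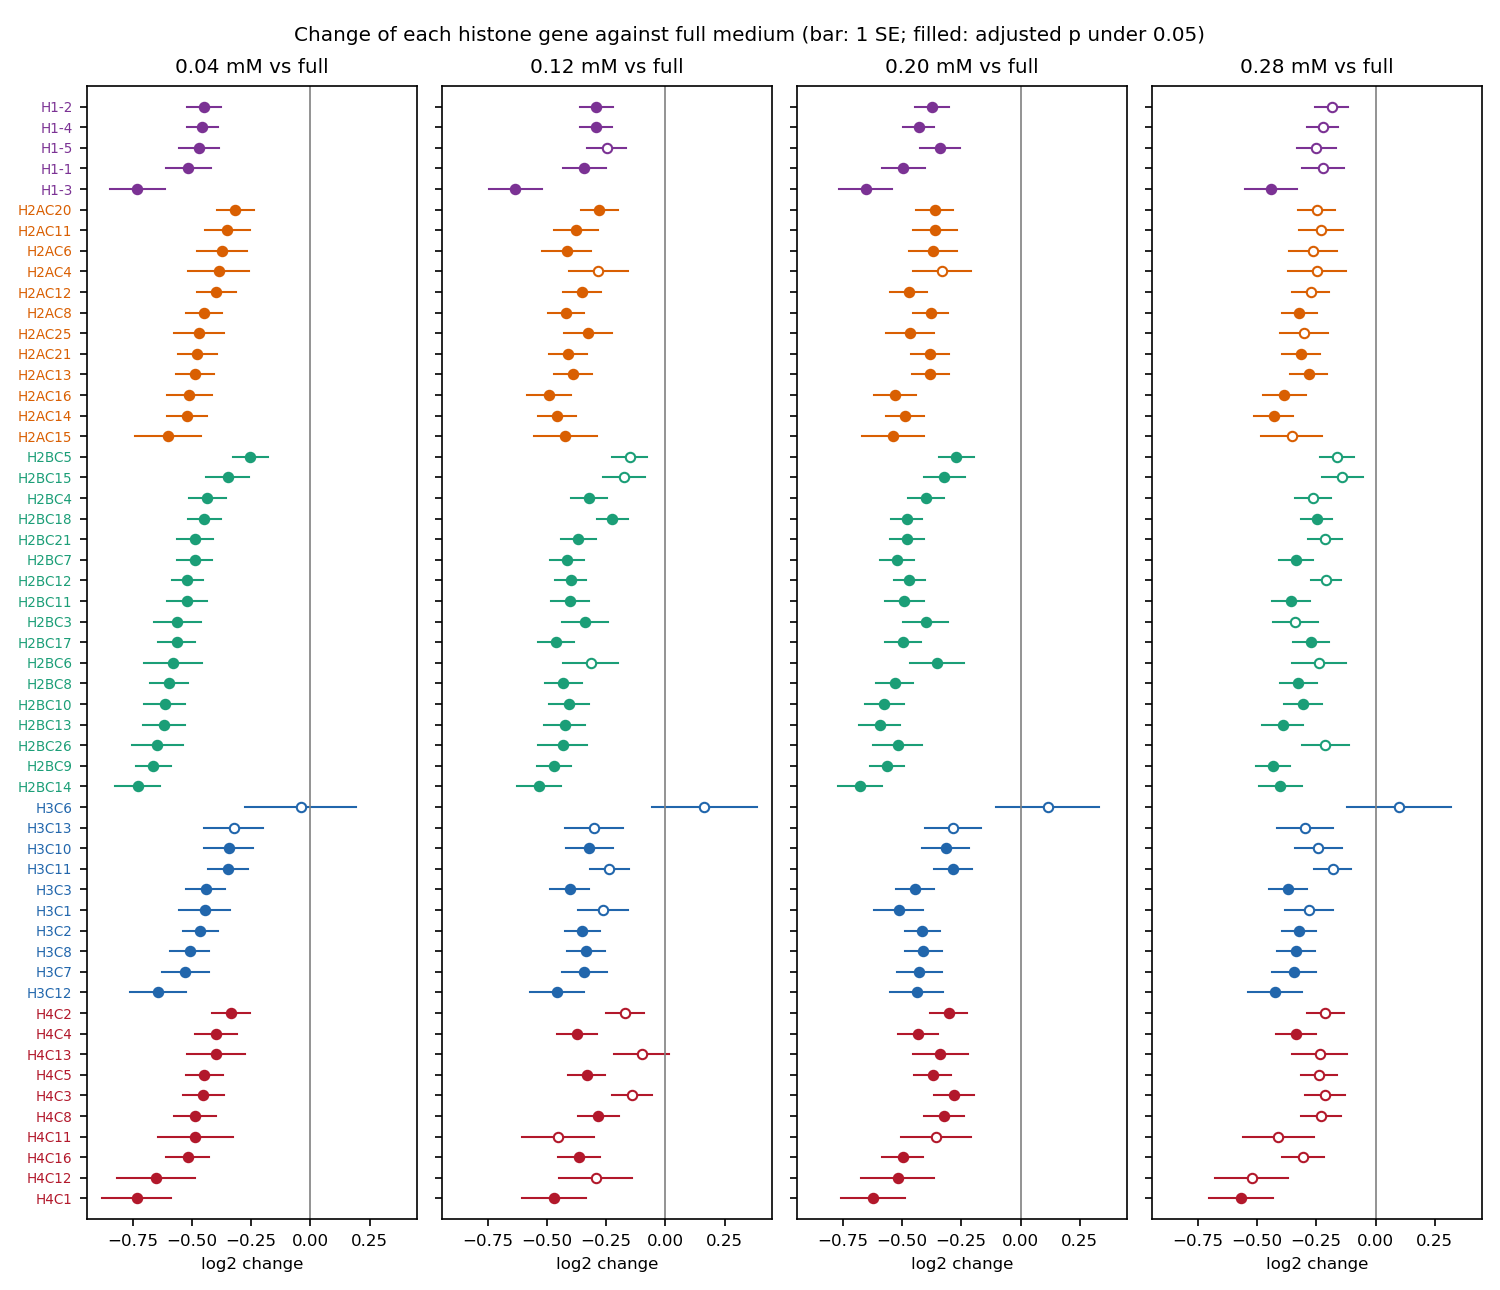
Log2 change (x axis) of each of the 54 histone genes (rows, coloured by class) at each limited glutamine concentration against full medium, with 1 standard error; filled points have an adjusted p under 0.05 in the fit with the replicate block. In the first panel all points lie left of 0 and 52 are filled, and in the last panel 22 are filled.

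**Figure D2:**
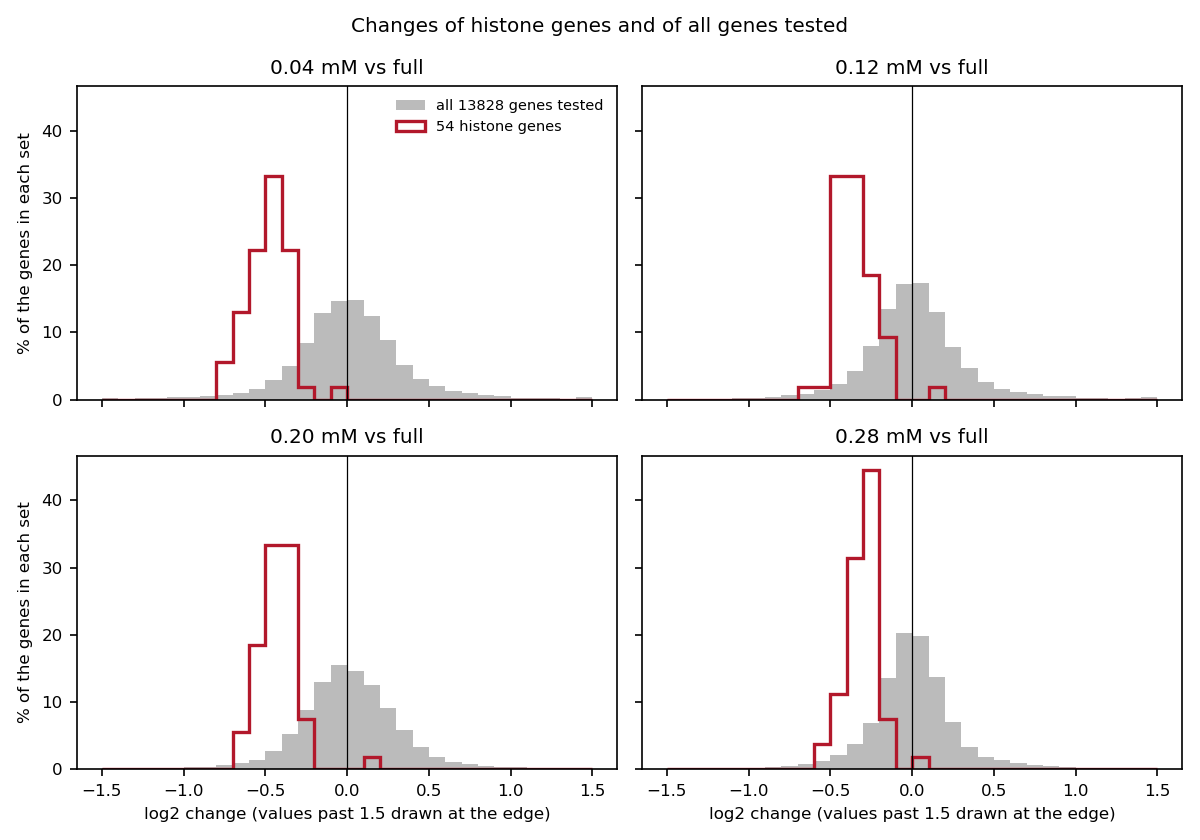
Share of genes (y axis, % of each set) by log2 change (x axis, bins of 0.1) for the 54 histone genes (red line) and all 13828 genes tested (grey) in the 4 comparisons with full medium. The histone genes lie to the left of 0 with H3C6 as the exception in 3 of the 4 panels, while all genes centre on 0.

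Summed over the 54 genes, the level was 9165, 10076 and 8446 CPM in full medium (replicates 1, 2 and 3) and 6627, 7273 and 6170 CPM at 0.04 mM. The groups did not overlap, and each pair moved by a like amount, with log2 ratios of -0.47, -0.47 and -0.45. The mean at 0.04 mM was 72.5% of that in full medium (6690 ± 554 and 9229 ± 817 CPM, SD, n = 3). The same replicates ranked alike across media: replicate 3 had the lowest sum in all 5 groups, and replicate 2 the highest in 4 of 5. By class the mean sum at 0.04 mM was 71.5% of full medium for H1, 75.1% for H2A, 70.4% for H2B, 73.2% for H3 and 73.8% for H4.

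**Figure D3:**
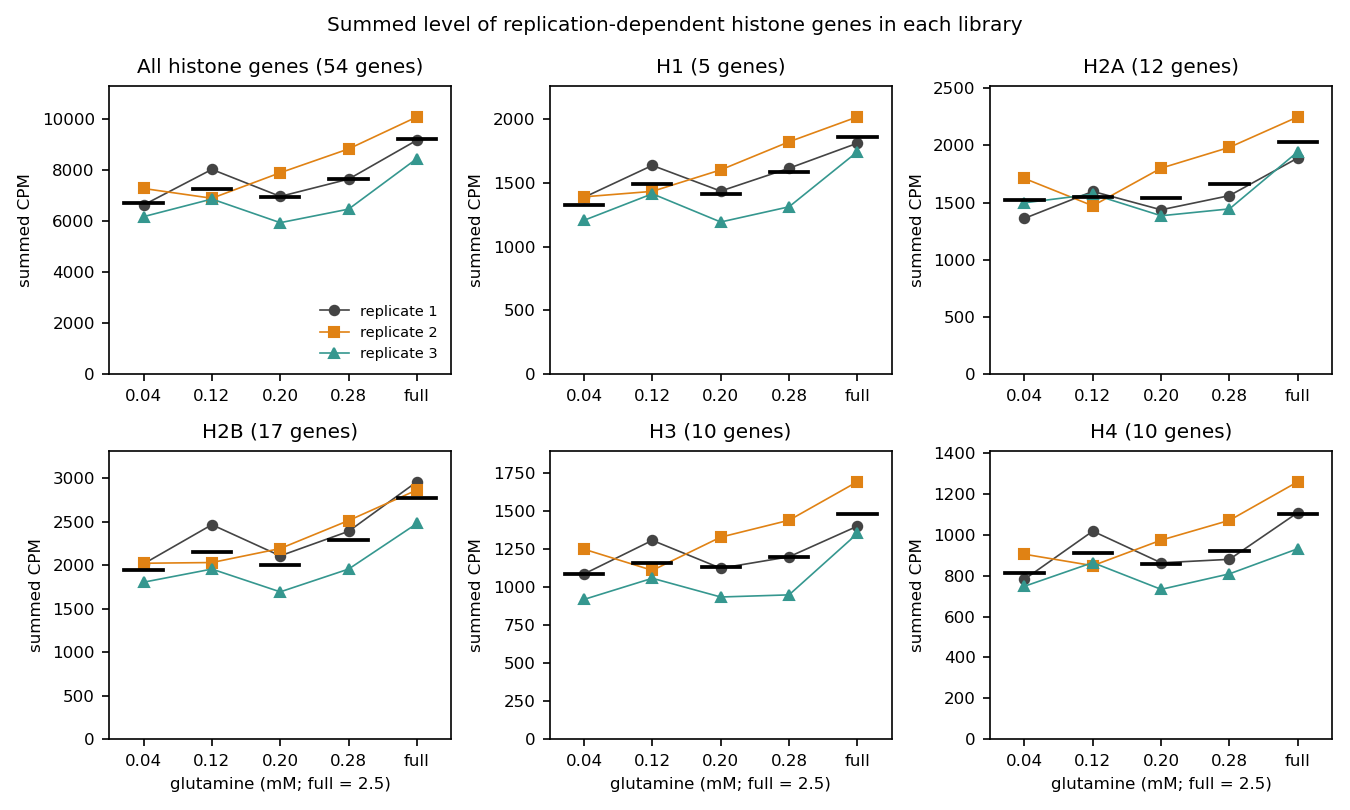
Summed CPM (y axis, from 0) of all 54 histone genes and of each class in every library, by glutamine concentration (x axis); lines join libraries with the same replicate number and black bars are group means. Full medium has the highest mean in each panel, and replicate 3 is the lowest of each group in the panel of all genes.

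All 5 linker histone genes fell at 0.04 mM (median log2 change -0.47). H1-2 and H1-5, the pair with the highest CPM in the class, encode linker histones of somatic cells. H1-2 was at 571, 640 and 583 CPM in full medium and at 443, 469 and 404 at 0.04 mM. The log2 change was -0.45 ± 0.07 (standard error, adjusted p = 7.8e-05), and further changes are given in that form. H1-5 went from 575, 694 and 562 to 441, 469 and 409 CPM, a change of -0.47 ± 0.08 (adjusted p = 0.00029). H1-3 (chromosome 6, 26234212 to 26234987) was among the 3 strongest falls of all 54 genes. Its libraries stood at 167, 207 and 183 CPM in full medium and at 131, 109 and 98.4 at 0.04 mM, with no overlap, and the change was -0.73 ± 0.12 (adjusted p = 7.6e-05). H1-1 and H1-4 also fell, and the 5 changes ran from -0.73 to -0.45.

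All 12 H2A genes fell at 0.04 mM, with changes from -0.60 to -0.32 and a median of -0.46. H2AC8 was at 278, 313 and 300 CPM in full medium and at 199, 254 and 205 at 0.04 mM, all below the controls. Its change was -0.45 ± 0.08 (adjusted p = 0.00017). H2AC20, from the 1q21 cluster, was at 332, 333 and 275 CPM in full medium and at 219, 272 and 268 at 0.04 mM, where the highest value came just under the lowest control. It had the smallest change of its class, -0.32 ± 0.08 (adjusted p = 0.0063). Without replicate 1 of the 0.04 mM group the change in H2AC20 was -0.22 and no longer passed (adjusted p = 0.10), nor did it with scaling to the spike-ins (-0.32, adjusted p = 0.12).

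The 17 H2B genes fell at 0.04 mM without exception, and their median of -0.56 was the lowest of the 5 classes. No test of the difference between classes was made. Its changes ran from -0.73 to -0.25. H2BC14 was at 109, 95.8 and 105 CPM in full medium and at 71.3, 61.8 and 55.5 at 0.04 mM, a change of -0.73 ± 0.10 (adjusted p = 6.7e-06). H2BC9 (chromosome 6, 26251614 to 26252075), whose stem-loop and promoter are printed above, had the smallest p of all 54 genes. It stood at 156, 144 and 131 CPM in full medium and at 90.8, 92.6 and 91.1 at 0.04 mM, and changed by -0.66 ± 0.07 (adjusted p = 4.9e-07). The 3 libraries at 0.04 mM had nearly the same level.

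The H2B genes with the most CPM fell less than that. H2BC4 was at 335, 317 and 264 CPM in full medium and 213, 235 and 232 at 0.04 mM (-0.43 ± 0.08, adjusted p = 0.00027). H2BC21, at 300, 281 and 271 against 219, 193 and 197 CPM, changed by -0.49 ± 0.07 (adjusted p = 5.4e-05). H2BC5 had the smallest change among the 52 genes that fell: its 221, 209 and 184 CPM in full medium and 173, 179 and 164 at 0.04 mM did not overlap, and the change was -0.25 ± 0.07 (adjusted p = 0.021). That call was lost without replicate 1 or 2 of either group, where the change was -0.22 to -0.27 and the adjusted p 0.055 to 0.13. It was also lost with scaling to the spike-ins (-0.26, adjusted p = 0.25). These 3 genes are on a list of histone genes known also to give polyadenylated mRNA, with H1-2, H2AC6 and H2BC12. All 6 fell at 0.04 mM (median -0.44). At 0.28 mM, where 22 of the 54 genes fell, their adjusted p was 0.055 to 0.27 with edgeR (median -0.21), and each had an unadjusted p under 0.05.

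Of the 10 H3 genes, 8 fell at 0.04 mM. H3C2 was at 367, 454 and 375 CPM in full medium and at 288, 339 and 242 at 0.04 mM, with no overlap, and changed by -0.47 ± 0.07 (adjusted p = 8.3e-05). H3C3, at 286, 284 and 207 against 205, 214 and 153 CPM, was lower in each pair, although the groups overlapped because replicate 3 was low in both. Its change was -0.44 ± 0.08 (adjusted p = 0.00044). Both exceptions among the 54 genes are in this class. H3C13, which shares 80.4% of its 50-base stretches with other genes, was at 58.5, 98.5 and 89.3 CPM in full medium and at 61.5, 76.6 and 56.3 at 0.04 mM. Its change of -0.32 ± 0.12 did not pass (adjusted p = 0.079), and without replicate 1 of full medium, the 1 pair in which it was not lower, it was -0.52 and passed (adjusted p = 0.0020). Without replicate 3 of full medium it was -0.14 (adjusted p = 0.52). H3C6 was at 5.62, 6.45 and 6.57 CPM in full medium and at 7.72, 6.59 and 2.43 at 0.04 mM. Its estimate of -0.04 ± 0.24 (adjusted p = 0.94) rested on the shallowest library, with 9 counts. Without that library the estimate was 0.19, and without replicate 3 of full medium it was 0.09.

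All 10 H4 genes fell at 0.04 mM (median -0.47). They encode an identical protein. H4C3, at 203, 254 and 177 CPM in full medium and 146, 174 and 143 at 0.04 mM, changed by -0.45 ± 0.09 (adjusted p = 0.00059). H4C5, at 205, 241 and 197 against 151, 156 and 164 CPM, changed by -0.45 ± 0.08 (adjusted p = 0.00027). In both genes the 0.04 mM libraries were below all controls. H4C1 had the largest fall of the 54 genes: 29.9, 26.3 and 22 CPM in full medium and 15.7, 16.9 and 15.4 at 0.04 mM gave -0.73 ± 0.15 (adjusted p = 0.00087).

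Of the named H4 genes, H4C12 was the least abundant and H4C2 the least changed. H4C12, whose sequence is wholly shared, was at 15.6, 16.5 and 12.5 against 7.81, 11.3 and 9.97 CPM, a change of -0.65 ± 0.17 (adjusted p = 0.0079). It was -0.51 and not called without replicate 1 at 0.04 mM (adjusted p = 0.10). H4C2, at 158, 202 and 137 against 133, 152 and 107 CPM, overlapped between groups but was lower in each pair, by -0.34 ± 0.08 (adjusted p = 0.0051). Without replicate 2 of full medium its adjusted p was 0.053, and with scaling to the spike-ins the change was -0.34 (adjusted p = 0.098). When the counts of genes that encode an identical protein were summed, the summed H4 counts changed by -0.43 ± 0.08 (adjusted p = 0.00072) and the summed counts of 9 H3 genes by -0.46 ± 0.09 (adjusted p = 0.00048).

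**Figure D4:**
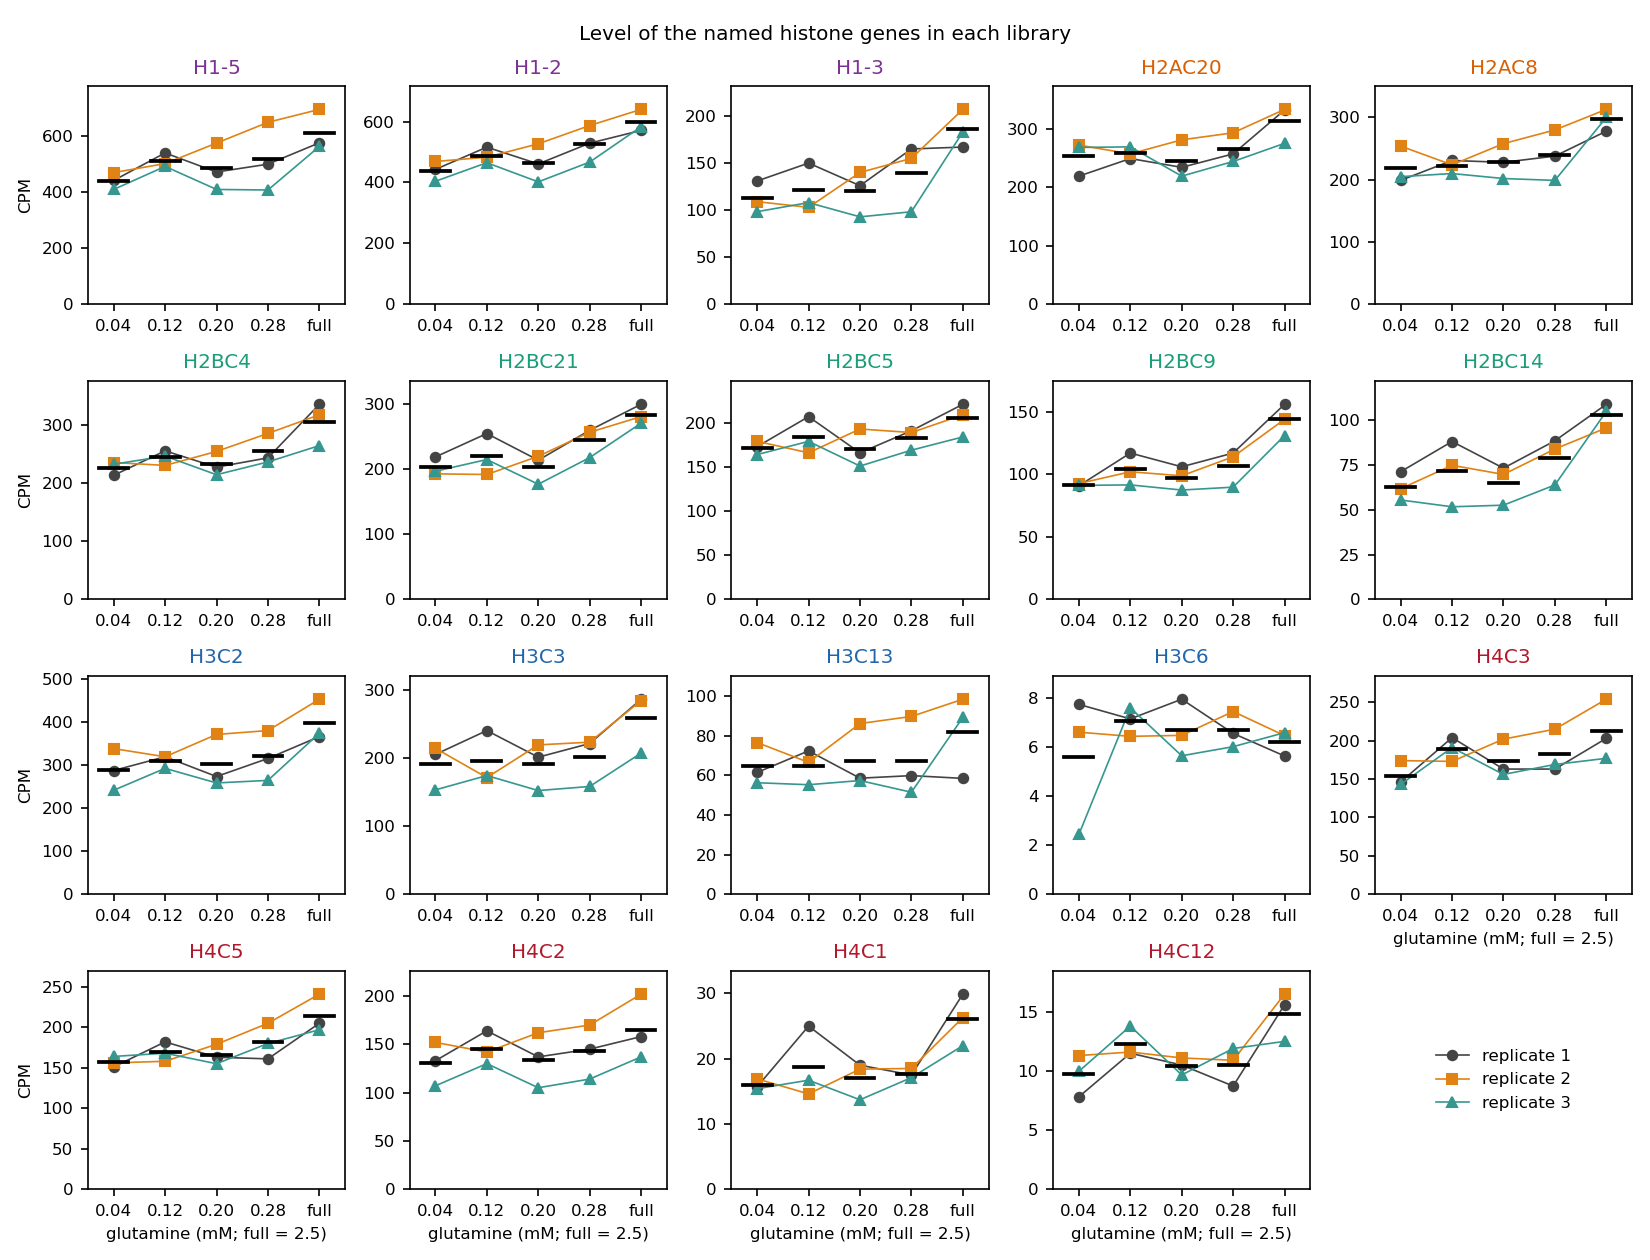
CPM (y axis, from 0) of 19 histone genes in every library by glutamine concentration (x axis); lines join libraries with the same replicate number and black bars are group means. Full medium has the highest mean in 18 of the 19 panels, and H3C6 is the exception.

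The other concentrations were compared with the same 3 full-medium libraries, so these comparisons are not independent of each other. At 0.20 mM 50 of 54 histone genes fell (median -0.43; 7.16% of all genes fell), at 0.12 mM 40 (median -0.35; 3.9%) and at 0.28 mM 22 (median -0.28; 0.846%). None rose at any concentration with edgeR or DESeq2, and H3C6 alone had estimates above 0 (0.10 to 0.16). Of all genes 7.67, 4.41 and 1.23% rose at 0.20, 0.12 and 0.28 mM. The 22 genes that fell at 0.28 mM were 18.8% of the 117 genes that fell there, and they are 40.7% of the histone genes. All 22 also fell at the 3 lower concentrations (0.73% of all genes fell at all 4). A further 18 fell at 0.04, 0.12 and 0.20 mM, 10 at 0.04 and 0.20 mM, and 2 (H2AC4 and H4C11) at 0.04 mM alone. H3C13 and H3C6 passed at none. Without the replicate block 0 of 54 passed at each of the 3 concentrations (edgeR), while 42, 34 and 16 had an unadjusted p under 0.05 (4.99, 3.84 and 1.96% of all genes, downward).

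Counts of genes whose libraries did not overlap with full medium followed the same order. They were 29 of 54 at 0.20 mM (8.4% of all genes), 23 at 0.12 mM (6.66%) and 12 at 0.28 mM (4.95%). The summed level was 6962, 7890 and 5934 CPM at 0.20 mM, 8020, 6890 and 6860 at 0.12 mM and 7639, 8822 and 6465 at 0.28 mM. The means were 75.1, 78.6 and 82.8% of full medium, in that order. The pairs at 0.12 mM were uneven, with log2 ratios of -0.19, -0.55 and -0.30. Without its replicate 2, which had the lowest ratio, the number of genes that fell at 0.12 mM was 18 in place of 40, the median was -0.23 in place of -0.35, and 4 estimates in place of 1 were positive.

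The values at 0.28 mM were the least firm. Without replicate 1 or replicate 3 of that group 1 gene passed, without replicate 2 or 3 of full medium 8 and 6, and the median change stayed between -0.29 and -0.24. H2BC9 had the smallest p at 0.28 mM, where 117, 114 and 89.7 CPM gave -0.43 (adjusted p = 0.00095). H1-3 changed by -0.44 (adjusted p = 0.027), H3C3 by -0.37 (adjusted p = 0.014) and H4C1 by -0.57 (adjusted p = 0.022). Among the genes with the most CPM, H1-2 (-0.19, adjusted p = 0.17), H2BC21 (-0.21, adjusted p = 0.12) and H4C3 (-0.21, adjusted p = 0.19) did not pass at 0.28 mM.

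By estimate, 43 of the 54 genes had their lowest value at 0.04 mM, 9 at 0.20 mM and 2 at 0.12 mM, and 41 had their smallest change at 0.28 mM. The order was not that of the concentrations, since 45 genes were lower at 0.20 than at 0.12 mM. Further comparisons asked whether the limited media differed from each other. That of 0.04 with 0.28 mM was taken from the fit of all 15 libraries. In the main analysis only the slope was fitted without the full-medium libraries. Between 0.04 and 0.28 mM all 54 estimates were negative (median -0.17), although 14 turned positive when the libraries were scaled to the spike-ins (median -0.05). Without replicate 2 at 0.28 mM the median was -0.11 and 3 estimates were positive. With edgeR in the main fit 0 of 54 passed as lower (0.0289% of all genes did). Some passed when 0.04 and 0.28 mM were fitted alone or without a filter on low counts, as given in the last section. An unadjusted p under 0.05 was found for 26 (4.18% of all genes, downward), and DESeq2 called 2, with no adjusted p for 21. The lowest was H2BC26, at 39.5, 41.7 and 31.5 CPM at 0.04 mM and 47.9, 59.9 and 47.0 at 0.28 mM (-0.43 ± 0.11, adjusted p = 0.17), a gene outside the rule for named genes and chosen after its values were seen. For a slope across the 12 limited libraries, all 54 estimates were positive, with a median of 0.05 log2 per doubling of glutamine, and 41 were positive when scaled to the spike-ins (median 0.02). The median was 0.03 without replicate 2 at 0.28 mM, where 8 estimates were negative, and 0.03 without replicate 1 at 0.04 mM, where 6 were. Again 0 passed with edgeR (0.0% of all genes) and 0 with DESeq2, which gave no adjusted p for 32, and 19 had an unadjusted p under 0.05 (3.42% of all genes, in that direction).

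The genes were also grouped by cluster and by promoter motif. At 0.04 mM the median change was -0.49 for the 46 genes at 6p22 (45 fell), -0.45 for the 5 at 1q21 (4 fell) and -0.56 for the 2 at 1q42 (both fell), and H4C16 at 12p12 changed by -0.52. Among H2B genes the 13 with the octamer anywhere in the promoter window had a median of -0.56. The 4 without it had a median of -0.48, and every gene of both sets fell. Within the 120 bases before the start, 11 H2B genes had the octamer, beginning 45 to 120 bases before the start. The 34 genes with TATAAA had a median of -0.48 (32 fell) and the 15 without it -0.49 (15 fell). At 0.12 mM 12 of the 13 H2B genes with the octamer fell (median -0.40) and 2 of the 4 without it (median -0.30). At 0.28 mM 8 of the 13 fell (median -0.31) and 1 of the 4 (median -0.19). By cluster, 20 of 46 at 6p22 and 2 of 5 at 1q21 fell at 0.28 mM, while the pair at 1q42 (adjusted p = 0.11 and 0.295, edgeR) and H4C16 (-0.31, adjusted p = 0.053) did not pass, each with an unadjusted p under 0.05. The differences between these groups of genes were not tested. Of the 40 genes with under 10% shared sequence 39 fell (median -0.47), and of the 7 with at least 50% 6 fell (median -0.49).

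Pairs were searched among the 49 genes with a promoter window, so H2AC12, which lies beside H2BC12 and had no window, was left out. In 8 pairs found there, an H2A and an H2B gene are transcribed away from each other, with 193 to 247 bases between their starts. Both partners fell at 0.04 mM in all 8 pairs, as did all 12 H2A and all 17 H2B genes. In 7 of the pairs the H2B gene had the lower estimate. The median of all H2B genes was also lower than that of all H2A genes (-0.56 against -0.46). H2BC8 and H2AC8 changed by -0.60 and -0.45, and H2BC4 and H2AC6 by -0.43 and -0.37. The exception was H2BC15 at -0.35 beside H2AC15 at -0.60. The median difference between partners was 0.17, and over all 204 combinations of an H2A with an H2B gene it was 0.13.

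The regulators of histone mRNA were measured alongside. Of 18 genes for the transcription, 3′ processing and decay of these mRNAs, 0 fell at 0.04 mM and 1 rose (median -0.07), with edgeR as with DESeq2, where 6.23% of all genes fell and 7.21% rose. An unadjusted p under 0.05 was found for 4 downward and 3 upward. SLBP was at 68.8, 85.5 and 70.4 CPM in full medium and at 74.7, 64.2 and 67.4 at 0.04 mM, and the groups overlapped (-0.12 ± 0.09, adjusted p = 0.42). NPAT, at 24.5, 35.5 and 31.2 against 32.2, 39.4 and 38.6 CPM, was higher in each pair, but did not pass (0.28 ± 0.10, adjusted p = 0.055). TUT7, which adds uridines to histone mRNAs during decay, was the 1 that rose, by 0.25 ± 0.09 (adjusted p = 0.047). At 0.20 mM TUT7, NPAT and CPSF2 rose and UPF1 fell, that is 3 and 1 of the 18, where 7.67% of all genes rose and 7.16% fell. CPSF2 and UPF1 are outside the rule for named genes and were chosen after their values were seen.

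Of 13 regulators of entry into S phase, 2 fell at 0.04 mM, CDC25A (-0.40, adjusted p = 0.0012) and E2F2 (-0.47, adjusted p = 0.048), 0 rose with edgeR or DESeq2, and the median was -0.01. An unadjusted p under 0.05 was found for 2 downward and 3 upward, and 6.23% of all genes fell in that comparison. CCNE2 (0.26, adjusted p = 0.17) and CDK2 (-0.10, adjusted p = 0.50), whose kinase acts on NPAT, did not pass. Of 47 DNA replication genes 28 fell and 0 rose with edgeR (26 and 1 with DESeq2), 1 had an unadjusted p under 0.05 upward, and the median was -0.26, beside -0.48 for the histone genes. MCM2, a subunit of the replicative helicase, was at 200, 240 and 256 CPM in full medium and at 173, 166 and 125 at 0.04 mM (-0.59 ± 0.09, adjusted p = 9.3e-05), and LIG1, which seals Okazaki fragments, changed by -0.47 (adjusted p = 0.00015). MCM7 (-0.43) and GINS1 (-0.48) fell as well. PCNA, the sliding clamp, was at 146, 210 and 189 against 167, 203 and 165 CPM and did not pass (-0.02 ± 0.08, adjusted p = 0.90).

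Of 12 histone genes not tied to replication that were tested, 4 fell at 0.04 mM and 0 rose with edgeR or DESeq2 (median -0.14), and 1 had an unadjusted p under 0.05 upward. H2AX, whose mRNA exists with a stem-loop and with a poly(A) tail, was at 288, 257 and 252 CPM in full medium and 233, 198 and 153 at 0.04 mM (-0.46 ± 0.08, adjusted p = 0.00017). H2AZ1 (-0.25, adjusted p = 0.026) and MACROH2A2 (-0.40, adjusted p = 0.0067) fell by the same test. The fourth, H3-7, has an uncertain place on this list and low counts, with 11.6, 21.5 and 19.3 against 9.48, 8.43 and 8.09 CPM (-0.95 ± 0.20, adjusted p = 0.0016). Of 19 histone chaperones 5 fell and 3 rose, beside 6.23% and 7.21% of all genes. ASF1B (-0.31, adjusted p = 0.013), which hands H3-H4 to the assembly factors, and HJURP (-0.30, adjusted p = 0.0057), which loads centromeric H3, fell. ATRX (0.61, adjusted p = 2.7e-06) and NAP1L1 (0.26, adjusted p = 0.0068) rose, and ATRX was also higher at 0.04 than at 0.28 mM (0.39, adjusted p = 0.038). Without the replicate block 0 of the 109 genes on these 5 lists passed with edgeR, and 27 had an unadjusted p under 0.05.

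**Figure D5:**
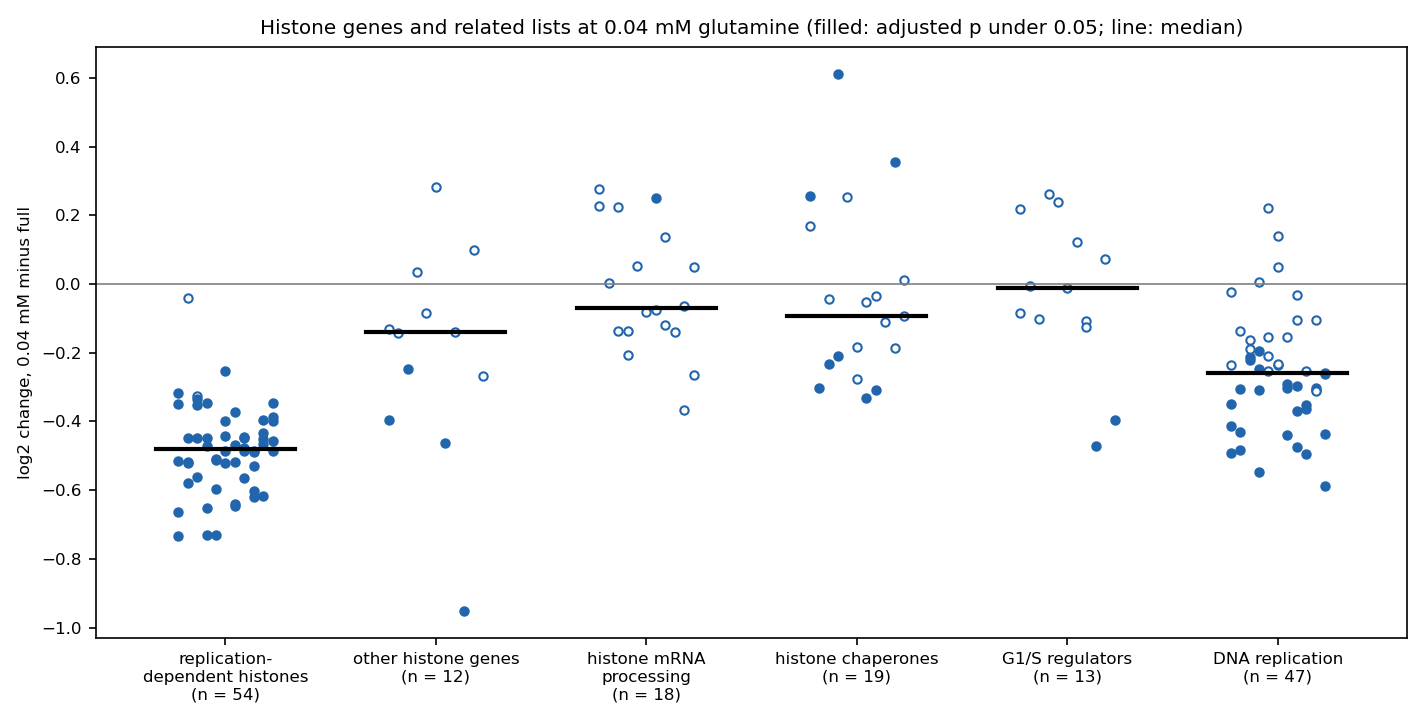
Log2 change at 0.04 mM glutamine against full medium (y axis) of the 54 replication-dependent histone genes and of the tested genes of 5 related lists (x axis), 1 point per gene, filled where the adjusted p is under 0.05, with the list median as a line. The medians are -0.48 for the histone genes, -0.26 for DNA replication and between -0.14 and -0.01 for the others.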

How the data were processed

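RNA of MCF10A cells in 5 glutamine conditions (3 libraries each) was read after ribosomal RNA removal. The authors deposited whole-number counts per gene, and the submitters' processing notes name GRCh38.p14. How reads were aligned, assigned to genes and treated for strand is not given in the sources used here. Each of the 15 columns matched a sample, with 0 left over. The 92 spike-ins were kept out of library sizes and used only for scaling as an alternative. Rows without a symbol stayed in the fit. With edgeR 4.0.16 (R 4.3.3), filterByExpr (minimum count 10, total 15) kept 13828 genes, and 1 quasi-likelihood fit with TMM scaling took all 15 libraries, blocked by replicate number. The labels do not say what a number stands for. With group means removed, all 30 same-numbered pairs of libraries correlated above 0.1 (0.184 to 0.489). The members and lists were chosen with earlier results of these data known. Named genes are the 2 with the most CPM per class, the 5 lowest and 5 highest changes at 0.04 mM, and up to 4 per list by p. DESeq2 1.42.0 and other settings were alternatives. Only the blocked edgeR fit of 0.04 mM against full medium was tried on simulated counts. A replicate effect was built into those counts, so they could not test the choice of the block.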

Additional observations from a re-analysis of the deposited data

How the results depend on the processing

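Libraries with the same replicate number were treated as pairs. Without the replicate block 0 histone genes fell at 0.04, 0.12, 0.20 or 0.28 mM (52, 40, 50 and 22 with it), and their medians were within 0.01 of those with it. The cause was not tested. Leaving out 1 library gave 41 to 50, 18 to 42, 41 to 50 and 1 to 31 genes, and 0 both between 0.04 and 0.28 mM and for the slope. Without replicate 3 in all groups 33 fell at 0.20 mM and 0 at 0.28 mM, with fewer libraries in the fit. Fitted alone with the block, 0.12 mM and full medium gave 20, and 0.04 and 0.28 mM gave 9. The latter comparison gave 2 with DESeq2 and 8 with no filter on low counts. A slope that took in full medium gave 52. All other settings stayed within 1.5 times the main count. Without the 2 libraries with over 1% mitochondrial rRNA (replicate 3 at 0.04 and 0.12 mM) the counts were 51, 37, 50 and 21. Scaling to the spike-ins shifted the median of all genes by -0.18 at 0.12 mM, -0.13 at 0.28 mM and 0.13 between 0.04 and 0.28 mM. Relative to it the medians of the histone genes were -0.37, -0.29 and -0.17. The estimate of H3C6 at 0.04 mM ran from -0.34 (without replicate 1 of that group) to 0.19 (without its replicate 3), and was 0.09 without replicate 3 of full medium. The shallowest library held 3704170 gene counts, 9 of them for H3C6.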
